A study of Danio rerio with 12 samples.

Results

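Molecular chaperones of the heat-shock protein families and their DnaJ partners were followed in whole brains of adult zebrafish 24 h after a simulated viral challenge. The genes were taken by name: every probe of the array, controls left out, whose RefSeq accession now carries a symbol starting with hsp, dnaj or serpinh1, or with hsf and a number. This gave 104 probes for 68 genes out of 43603 probes, of which 38 genes code for DnaJ proteins and 30 for heat-shock proteins and a few others. Of these, 57 genes (31 DnaJ, 26 others) were detected, that is, had a probe well above background on 3 or more arrays of 12, and were tested, among 16130 transcripts in all. The current gene table holds 99 symbols of this form. The heat-inducible hsp70.1, hsp70.2 and hsp70.3, the heat-shock factor hsf1, hsph1, hspa8b and serpinh1a had no matched probe and were not analysed here.

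The fish formed 4 groups, each with 3 arrays of pools of 3 brains, taken from 9 fish. PIC_G fish received poly(I:C), a synthetic double-stranded RNA (dsRNA) that imitates a viral genome, by intraperitoneal injection and could move along a thermal gradient. PIC_sG fish received the same dsRNA and had no gradient. PBS fish were injected with saline and were kept in the gradient, and Control fish were not injected. The labels give a dsRNA dose of 1 mg per kg and place the Control fish in the gradient, whereas the methods of the study give a lower dose and describe the controls without a gradient. A comparison of PBS with Control therefore holds the injection and, by the methods, the gradient too. The comparison of all dsRNA arrays with the PBS and Control arrays, called a difference with dsRNA below, holds more than the dsRNA. All dsRNA fish were injected and the Control fish were not. By the labels the gradient differs in it as well, since PIC_sG fish alone had none. The fish came from a commercial supplier, and neither a strain nor a sex is named in the labels.

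Heat-shock proteins hold unfolded or newly made proteins until they reach their final shape. Hsp70 proteins bind short stretches of unfolded chain in a cycle driven by ATP, DnaJ proteins (Hsp40) bring them their substrates and start ATP hydrolysis, and exchange factors of the Hsp110 kind reset the cycle. Hsp90 takes over clients at a later stage, small heat-shock proteins keep damaged proteins from clumping without using ATP, and Hsp60 with Hsp10 forms a folding cage in mitochondria. Some members of these families are made at all times, and others are switched on by heat or other stress through heat-shock factors.

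Levels are given as the log2 of the processed signal minus the log2 of the array's 75th percentile, so that 0 is the 75th percentile of the array and a step of 1 is a doubling. Signals depend on the probe, and levels are compared between groups and never between genes. Across arrays the 75th percentile lay between 97.8 and 537 intensity units, except for 34.5 on PIC_sG replicate 3, on which 28 of the 57 genes were well above background against 48 to 57 on the other arrays. The replicate number is the slide, and each of the 3 slides held 1 array of every group. In the series table the 6 PIC_G and PIC_sG columns hold the values of the other dsRNA group's arrays. The assignment of the scanner files was used, and every sign between PIC_G and PIC_sG below turns if the table is right, whereas the comparison of all dsRNA arrays with the rest does not depend on it. Levels, group orders, bounds and calls given for 1 dsRNA group would then belong to the other. The 4 calls of PIC_sG against PBS would become those of PIC_G against PBS. The call of hspa1b would pass from PIC_sG against Control to PIC_G against Control. The p-values measure the spread between pools, and 3 arrays a group limit their precision.

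The challenge could be read from anti-viral genes, of which 6 of the 9 tested rose in the dsRNA groups at an adjusted p under 0.05 (limma, Benjamini-Hochberg over all transcripts), with a median log2 difference of 3.26 over the list. Of these, mxb and irf7 were well above background on 9 arrays, mxa on 8, stat1b and mxe on 6 and rsad2 on 5. Their differences thus include signals near background. Whether stat1b, mxe and rsad2 were detected through dsRNA arrays alone was not counted. Among the chaperones, 2 of 57 passed the adjusted threshold between the dsRNA arrays and the PBS and Control arrays, and both fell: hspa1b of the Hsp70 family and the small heat-shock protein hspb1. Of all transcripts 1.45% passed. At an unadjusted p under 0.05, 11 chaperones were lower with dsRNA and 3 were higher, which is 19.3% and 5.26% of them, against 5.19% lower and 10.5% higher among all transcripts. The median log2 difference was -0.19 over the chaperones and 0.07 over all transcripts, and 37 of the 57 were below 0. Within slides 1, 2 and 3 the chaperone median less that of all transcripts was -0.31, -0.23 and -0.23. With the slide as a block 5 genes were called, hspa1b, hspb1, hsp90aa1.1 and hsp90aa1.2 lower and dnajc3b higher, where 2.81% of all transcripts were. The block thus raised calls over the whole array, and the gene paragraphs print its adjusted p only where that was under 0.05. Among genes that did not pass with it were dnajb4 (adjusted p = 0.0748), dnaja3a (0.0785), hspb9l (0.0937) and hsp70l (0.11). Without PBS replicate 1 there were 5 calls, all lower, where 1.23% of all transcripts were called. The split of 3 higher and 11 lower became 1 and 9 when arrays were scaled to their 50th percentile and 5 and 6 when computed from the series table. That of all transcripts went from 1687 higher and 837 lower to 601 and 620 and to 2760 and 203.

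The family medians ranged widely, and the values within families overlapped between them. The median log2 difference with dsRNA was -1.105 over 4 hsp90 genes, -0.40 over 9 hsp70 genes, -0.42 over 8 small heat-shock genes and -0.61 over hspd1 and hspe1. It was 0.04 over 5 dnaja, 0.00 over 10 dnajb and 0.01 over 16 dnajc genes, where all transcripts had 0.07. With the series table's values the small heat-shock median was 0.05 and that of hsp70 -0.025, both under the 0.336 of all transcripts. These medians cover fewer genes, 7 small heat-shock and 8 hsp70, since 54 of the 57 chaperones could be tested there. The hsp70 gene without a value was hspa1b, which had the lowest difference of that family, so these medians are not like for like. The medians of hsp90, hsp70 and hsp60 with hsp10 stayed below 0 under each scaling tried.

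Hsp90 in the cytosol is encoded by a stress-inducible pair, hsp90aa1.1 and hsp90aa1.2, and by the constitutive hsp90ab1. The hsp90aa1.1 gene had levels of -1.52, -0.86 and -0.38 on the PIC_G arrays, -3.91, -3.30 and -1.26 on the PIC_sG arrays, 1.55, -0.09 and 2.60 on the PBS arrays and -0.83, -0.04 and -0.16 on the Control arrays. PIC_sG arrays were the lowest apart from an overlap with 1 PIC_G array, and PBS arrays were the highest apart from 1 within the Control range. It was well above background on no PIC_sG array and on all 9 others. Its 2 probes gave differences with dsRNA of -3.19 and -1.57, and jointly -2.38 ± 0.53 (SE, adjusted p = 0.0535, and 0.0208 in the slide-blocked fit), a measured value that rests on 3 of the 6 dsRNA arrays above background. In zebrafish hsp90aa1.1 is best known from muscle, where it folds myosin.

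The other inducible gene, hsp90aa1.2, had levels of 3.27, 2.16 and 2.09 in PIC_G, 1.23, 2.00 and 2.50 in PIC_sG, 3.43, 5.53 and 5.15 in PBS and 2.87, 4.28 and 3.32 in Control. Every dsRNA array was under every PBS array, and 1 PIC_G array lay within the Control range. The difference with dsRNA was -1.89 ± 0.42 (adjusted p = 0.0564, and 0.0450 in the slide-blocked fit). The constitutive hsp90ab1, as the median of 4 probes, stayed between 4.55 and 5.43 on all 12 arrays, and its difference with dsRNA had a 95% interval of -0.47 to 0.47. Single probes were less steady: 1 ran from 7.55 to 9.93 and another from 2.28 to 4.02. On the dim PIC_sG replicate 3 these stood at 9.93 and 2.28. The 4 probes had differences with dsRNA of -0.04, 0.01, -0.002 and -0.10. The fourth gene, hsp90b1, belongs to the endoplasmic reticulum and is described with that compartment.

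Among the Hsp70 genes hspa1b, a heat-inducible cytosolic form, had the widest range of group means of all 57 chaperones. Its levels were -0.52, 0.06 and 1.08 in PIC_G, -4.86, -3.36 and -1.28 in PIC_sG, 3.93, 2.42 and 4.94 in PBS and 0.40, 2.20 and 2.10 in Control. PIC_sG arrays were under all others and PBS arrays above all others, and only PIC_G replicate 3 reached the Control range. The difference with dsRNA was -4.15 ± 0.64 (adjusted p = 0.0082), with -4.86, -3.96 and -3.62 within slides 1, 2 and 3. No PIC_sG array was well above background, so that this measured value rests on 3 of the 6 dsRNA arrays above background, and distances from PIC_sG are lower bounds, taken from the dimmest signal still above background. The gene was at least 50.9-fold lower in PIC_sG than in PBS (adjusted p = 0.0072) and at least 11.1-fold lower than in Control (adjusted p = 0.031). An adjusted p beside a bound, here and below, is that of the measured difference. That difference is larger than the bound and includes signals near background. It has 1 probe, and near-identical hsp70 genes may share its signal, which makes the identity of the copy uncertain. The call with dsRNA held in all 12 fits that left out 1 array and under the 9 other settings that gave it a value (adjusted p up to 0.0394), whereas that of PIC_sG against Control held in 7 of 12, with an adjusted p up to 0.154 without Control replicate 3.

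The related hsp70l, induced by heat in zebrafish embryos, had 2.60, 1.17 and 1.85 in PIC_G, 0.99, 0.69 and 0.92 in PIC_sG, 2.82, 5.16 and 5.90 in PBS and 2.90, 4.59 and 0.94 in Control. PIC_sG arrays lay close together at the bottom with Control replicate 3 among them, and the other Control arrays were under the 2 highest PBS arrays. The difference with dsRNA was -2.35 ± 0.64 (adjusted p = 0.101). The constitutive hspa8, the housekeeping Hsp70 of the cytosol, lay between 0.74 and 1.84 on 11 arrays and at 4.07 on the dim PIC_sG replicate 3. This is the median of 3 probes, and the 4.07 is that of 1 probe. On PIC_sG replicate 3 the others read 7.66 and 1.34, where they had 6.49 to 7.34 and 0.28 to 1.78 on the 11 arrays.

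The Hsp110 exchange factors hspa4a and hspa4b behaved differently. The hspa4a levels were 0.24, 0.03 and -0.15 in PIC_G, 0.01, -0.23 and -1.295 in PIC_sG, 0.91, 2.755 and 2.39 in PBS and -0.52, 0.40 and -0.10 in Control. All PBS arrays were above all others, and the remaining groups overlapped. Control replicate 1 and PIC_sG replicate 3 were not well above background for this gene. The gene was higher in PBS than in Control by 2.09 ± 0.50 (adjusted p = 0.0446), and the log2 difference between PIC_sG and PBS was -2.53 ± 0.50 (adjusted p = 0.0413). Each of these differences thus includes a signal near background. Both calls held in 2 of 12 fits that left out 1 array, with adjusted p up to 0.176 and 0.161 without PBS replicate 2. The paralog hspa4b stayed between 4.63 and 6.04 and differed with dsRNA by 0.22 ± 0.31.

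Of the other Hsp70 genes, hspa14, which works at the ribosome, and hspa12b, known from endothelial cells, had differences with dsRNA of -0.25 and -0.19, and the mitochondrial hspa9 had -0.48. None of these 3 passed an unadjusted p under 0.05. The 4 probes of hspa9 disagreed on PBS against Control, with differences of -1.66, 0.63, 2.25 and -0.94, so that its median over probes is uncertain there. Of the 9 Hsp70 genes, 3 were lower with dsRNA at an unadjusted p under 0.05 and none was higher, where 5.19% of all transcripts were lower and 10.5% higher.

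Small heat-shock proteins were led by hspb1, known as Hsp27, which binds unfolded proteins and actin. It had levels of 4.35, 5.75 and 5.74 in PIC_G, 3.64, 3.37 and 2.51 in PIC_sG, 7.21, 6.62 and 7.56 in PBS and 4.83, 5.38 and 5.48 in Control. The arrays fell into 3 steps: PBS above all others, PIC_G and Control together, and PIC_sG under all others. With dsRNA the difference was -1.95 ± 0.32 (3.87-fold lower, adjusted p = 0.0126), with -2.02, -1.44 and -2.40 within the slides. PIC_G and Control differed by 0.05 (95% interval -0.96 to 1.05), whereas PIC_sG was lower than PBS by a log2 difference of -3.955 ± 0.46 (15.5-fold, adjusted p = 0.00413). Both calls held in all 12 fits that left out 1 array. The call with dsRNA was lost, at the same sign, with the 50th percentile, normexp background correction, no filter on dim probes and the series table, with an adjusted p up to 0.355 with normexp. In a test of any difference among the 4 groups (moderated F in limma) hspb1 and hspa1b were the 2 chaperones called (adjusted p = 0.0084 and 0.0149), where 2.3% of all transcripts were.

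The remaining small heat-shock genes did not follow as a family. The hspb9l gene had a difference with dsRNA of -1.18 ± 0.32 (adjusted p = 0.0994), while hspb6, hspb7 and hspb8, known from heart and muscle, had -0.10, -0.29 and -0.48. The hspb15 gene had 0.66, -1.77 and -2.95 in PBS and 1.35, 0.54 and 0.22 in Control (difference -2.05 ± 0.74, adjusted p = 0.136), opposite to hspb1, and was well above background on 1 PBS array and on all 3 Control arrays. The hspb3 gene was well above background on 3 arrays and hspb9 on 4, so that their differences with dsRNA of 0.53 and -1.23 rest on signals near background.

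**Figure D1:**
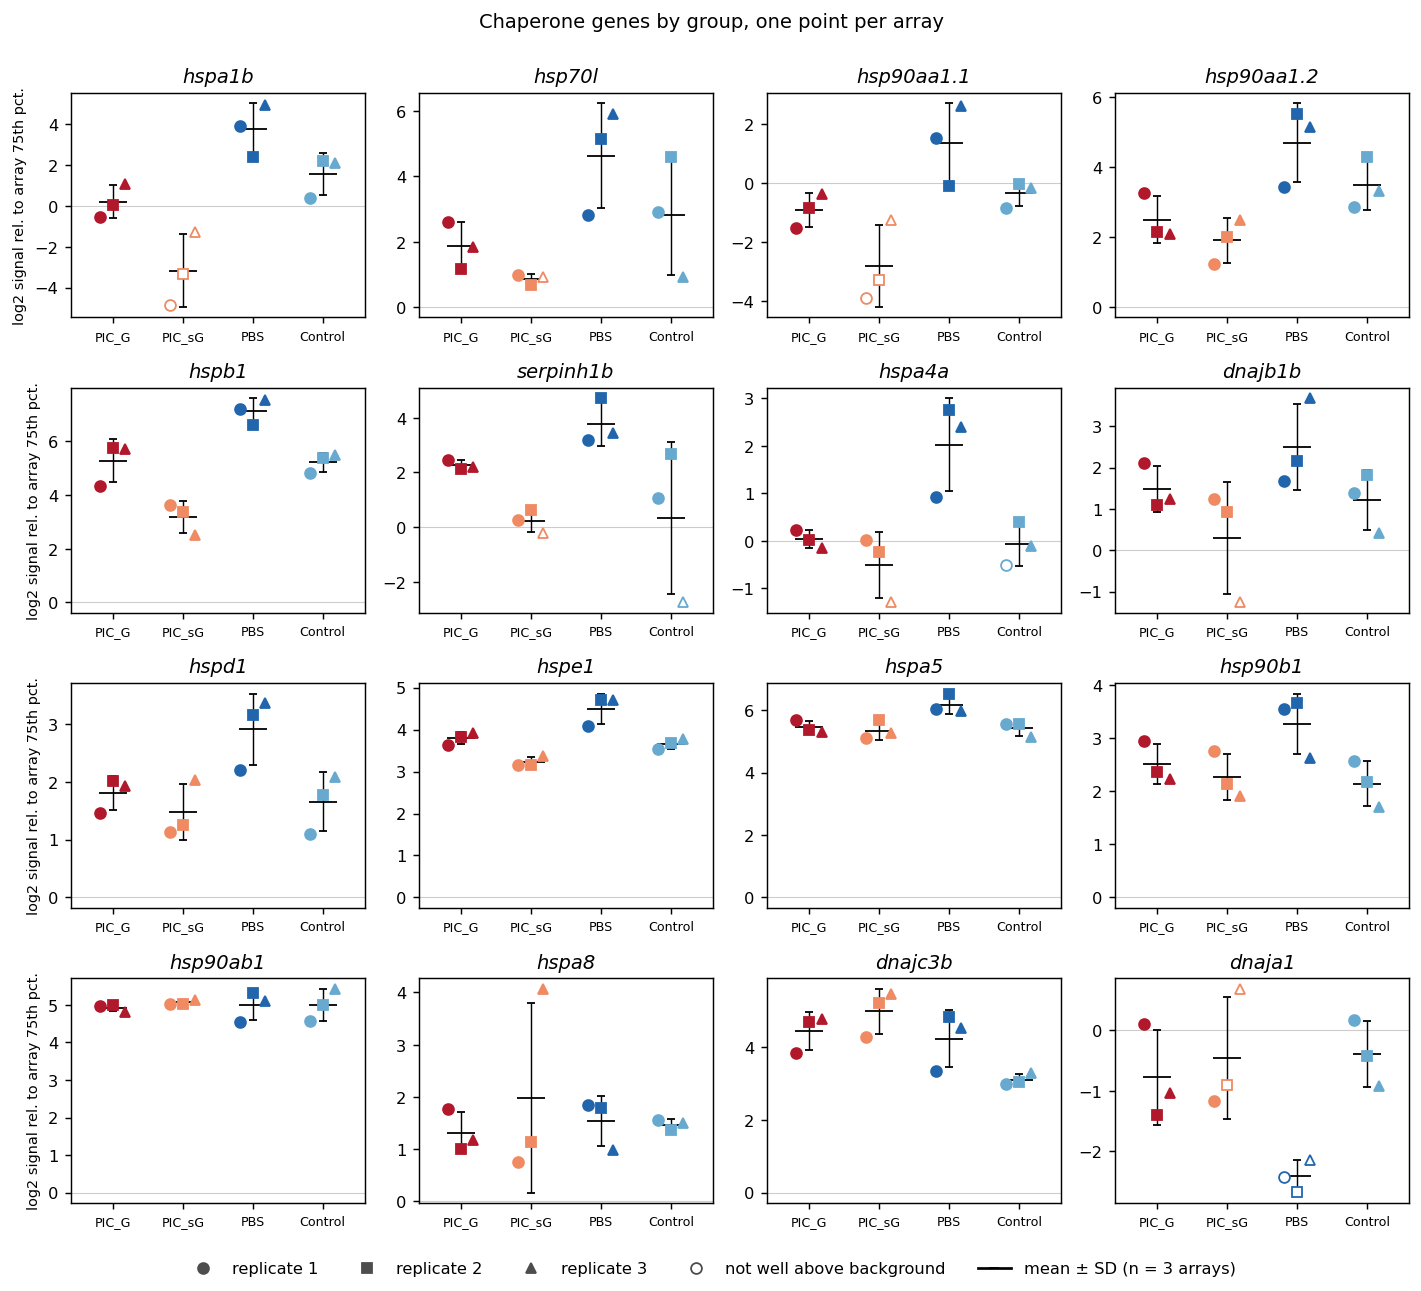
Levels of 16 chaperone genes on each of the 12 arrays (y axis, log2 signal relative to the array's 75th percentile) by group (x axis), with the mean and SD of 3 arrays, a shape for each replicate and open marks where the gene was not well above background. The inducible hspa1b, hsp90aa1.1 and hspb1 had their highest mean in PBS and their lowest in PIC_sG, whereas hsp90ab1, as the median of its probes, stayed between 4.55 and 5.43.

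Hsp60 and Hsp10 are encoded by the neighbouring genes hspd1 and hspe1. The hspe1 levels were 3.63, 3.82 and 3.92 in PIC_G, 3.15, 3.15 and 3.38 in PIC_sG, 4.08, 4.71 and 4.70 in PBS and 3.53, 3.68 and 3.77 in Control. PBS arrays were above all others and PIC_sG arrays under all others, with little spread within groups. The hspd1 levels were 1.46, 2.01 and 1.92 in PIC_G, 1.14, 1.26 and 2.03 in PIC_sG, 2.20, 3.14 and 3.37 in PBS and 1.1006, 1.78 and 2.09 in Control. Here too all PBS arrays were above the rest, but the other groups overlapped. The differences with dsRNA were -0.57 ± 0.19 for hspe1 and -0.64 ± 0.29 for hspd1 (adjusted p = 0.182 and 0.308). Between PBS and Control they were 0.84 ± 0.27 and 1.25 ± 0.40 (adjusted p = 0.102 and 0.104), of which hspd1 passed with the slide as a block (adjusted p = 0.0307).

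Other mitochondrial chaperones were mixed. The DnaJ protein dnaja3a, a partner of mitochondrial Hsp70, had 2.55, 3.19 and 3.42 in PIC_G, 2.82, 3.46 and 2.20 in PIC_sG, 3.56, 4.35 and 3.76 in PBS and 3.67, 4.03 and 3.62 in Control. All 6 dsRNA arrays were under all 6 others. This held for 2 chaperones, dnaja3a and dnajb4, and for 0.459% of all transcripts, and the opposite held for no chaperone and 1.28% of all transcripts. The difference of dnaja3a was -0.89 ± 0.27 (adjusted p = 0.143), with -0.93, -0.87 and -0.88 within the slides. For its paralog dnaja3b it was 0.04, and for dnajc15 and dnajc19, which act in protein import at the inner membrane, it was -0.12 and -0.06. The dnajc19 spot of PBS replicate 1 was an outlier spot and was left out of its fit.

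In the endoplasmic reticulum hspa5 (BiP) and hsp90b1 (Grp94) are the main chaperones and are raised when unfolded proteins gather there. The hspa5 levels were 5.68, 5.37 and 5.31 in PIC_G, 5.10, 5.67 and 5.25 in PIC_sG, 6.03, 6.53 and 5.96 in PBS and 5.55, 5.56 and 5.14 in Control. All PBS arrays were above all others, and the other 3 groups overlapped. PBS exceeded Control by 0.76 ± 0.29 for hspa5 (adjusted p = 0.158) and by 1.13 ± 0.39 for hsp90b1 (adjusted p = 0.122, and 0.0365 in the slide-blocked fit), with the same sign for both probes of each gene. The differences with dsRNA were -0.40 and -0.32.

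Of the dnajc3 genes, partners of BiP, dnajc3b did not share this order. DnaJC3, known in mammals as p58IPK, also restrains PKR, the kinase activated by dsRNA. For dnajc3b the levels were 3.85, 4.70 and 4.79 in PIC_G, 4.28, 5.21 and 5.48 in PIC_sG, 3.36, 4.85 and 4.53 in PBS and 2.99, 3.05 and 3.30 in Control. Control arrays were under all others, and PIC_sG was the highest on each slide. The difference with dsRNA was 1.04 ± 0.32 (adjusted p = 0.148, and 0.0380 in the slide-blocked fit), with 0.89, 1.00 and 1.22 within the slides. PIC_sG exceeded Control by 1.88 ± 0.45 (adjusted p = 0.0745, and 0.0175 with the block). The paralog dnajc3a had its highest mean in PBS and its lowest in Control, as hsp90b1 did, and differed with dsRNA by 0.10. For dnajb9a, dnajb11 and dnajc10, which serve quality control in the same compartment, the difference was -0.23, 0.70 and -0.17. For dnajb11 the 1 probe above background on 11 arrays gave 0.25, and the other 2 probes, above background on 3 arrays each, gave 0.48 and 0.77.

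Cytosolic DnaJ proteins of the A and B classes are the partners of Hsp70 in refolding. The heat-inducible dnajb1b had 2.12, 1.1015 and 1.24 in PIC_G, 1.24, 0.92 and -1.26 in PIC_sG, 1.68, 2.16 and 3.67 in PBS and 1.39, 1.83 and 0.42 in Control. Its groups overlapped widely, and the difference with dsRNA was -0.97 ± 0.50 (adjusted p = 0.373). For its paralog dnajb1a the joint levels of 2 probes were 1.01, 1.79 and 1.17 in PBS and -0.45, 0.49 and -1.62 in Control, without overlap (difference 1.85 ± 0.55, adjusted p = 0.0836, and 0.0275 in the slide-blocked fit). The probes differed by 1.19 and 2.52. The groups overlapped on the first, with 0.16 on PBS replicate 1 and 0.74 on Control replicate 2. The second had -3.16 on Control replicate 3. Control replicate 1 was not well above background for this gene. The dnajb4 gene had 0.88, 2.08 and 1.94 in PIC_G, 1.09, 1.46 and 1.30 in PIC_sG, 2.64, 2.66 and 2.31 in PBS and 2.84, 2.17 and 2.25 in Control. Its dsRNA arrays were under all others (difference -1.02 ± 0.25, adjusted p = 0.0758).

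The dnaja1 gene, a general Hsp70 partner, was well above background on all PIC_G and Control arrays, on 1 PIC_sG array and on no PBS array. Its levels were -2.44, -2.68 and -2.14 in PBS and 0.17, -0.42 and -0.92 in Control. Every PBS array was under every Control array, and the PBS mean was at least 2.2-fold lower (adjusted p of the measured difference = 0.0608). The related dnaja2a and dnaja2b had differences with dsRNA of -0.34 and 0.17. The aggregation suppressors dnajb6a and dnajb6b were well above background on 3 and 4 arrays, all of them with dsRNA. For dnajb6b the measured difference was 0.81 ± 0.31 (adjusted p = 0.242), with a bound of at least 1.02-fold higher. It is 1 of the 3 chaperones higher with dsRNA at an unadjusted p under 0.05, and it passed the filter on dim probes only through the dsRNA arrays, so that its p lends it no support. The neuronal dnajb2 had -0.15.

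DnaJ proteins of the C class share the J domain and work in many places. Of the 16 tested, 2 were higher with dsRNA at an unadjusted p under 0.05 and none was lower, close to the 10.5% higher among all transcripts. Besides dnajc3b this was dnajc28, with 0.85, 0.58 and 0.70 in PIC_G, 0.52, 1.59 and 3.37 in PIC_sG, 0.17, 0.19 and -0.90 in PBS and -0.04, 0.35 and 0.58 in Control. Its highest value fell on the dim PIC_sG replicate 3 (difference 1.21 ± 0.42, adjusted p = 0.2). The synaptic vesicle chaperone dnajc5aa (cysteine string protein) had 4.22, 4.54 and 4.53 in PIC_G, 3.97, 4.40 and 4.48 in PIC_sG, 4.29, 4.39 and 4.08 in PBS and 5.30, 4.77 and 5.755 in Control. Every Control array was above all 9 others. Relative to Control the log2 difference was -0.84 ± 0.31 in PIC_G, -0.99 ± 0.31 in PIC_sG and -1.02 ± 0.31 in PBS (adjusted p = 0.208, 0.152 and 0.0866). Among the rest dnajc7, which hands clients between Hsp70 and Hsp90, had a difference with dsRNA of 0.08.

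Outside these families serpinh1b (Hsp47, the collagen chaperone of the endoplasmic reticulum) had 2.47, 2.12 and 2.19 in PIC_G, 0.25, 0.63 and -0.20 in PIC_sG, 3.20, 4.70 and 3.46 in PBS and 1.08, 2.68 and -2.75 in Control. PBS arrays were above all others and PIC_G arrays above all PIC_sG arrays, while the Control arrays spread from the bottom of the range to above PIC_G. PBS exceeded Control by 3.45 ± 1.03 (adjusted p = 0.0850), with 2.12, 2.02 and 6.21 within the slides. Control replicate 3 was not well above background for this gene, so that the 3.45 and the 6.21 include a signal near background. The heat-shock factor hsf2 lay between 0.55 and 1.77 on all arrays and differed with dsRNA by -0.09 ± 0.25. The exchange factor hspbp1, which matches the symbols by its letters, was well above background on 5 arrays. The 11 genes not tested were dnajb5, dnajb9b, dnajb12b, dnajc5gb, dnajc17, dnajc18, dnajc27, hspa13, hspb11, hsf5 and hspbap1.

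**Figure D2:**
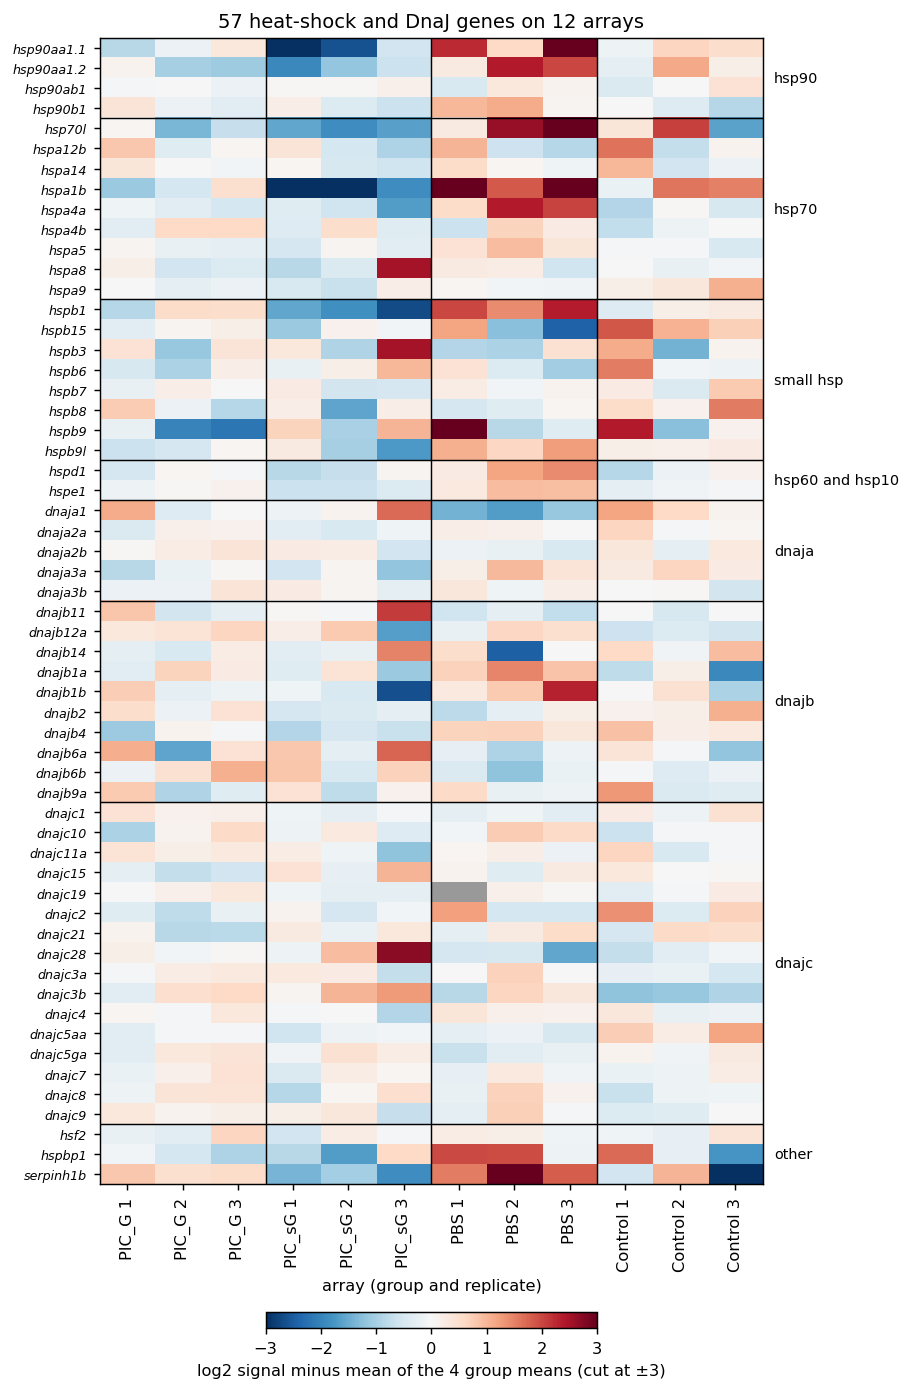
Log2 signal of the 57 tested genes (rows, by family) on the 12 arrays (columns, by group and replicate) minus the mean of the 4 group means, with colours cut at 3 in either direction and a left-out spot in grey. In hspa1b and hspb1 the PBS and PIC_sG arrays stand at opposite ends, and in hsp90aa1.1 their means do.

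**Figure D3:**
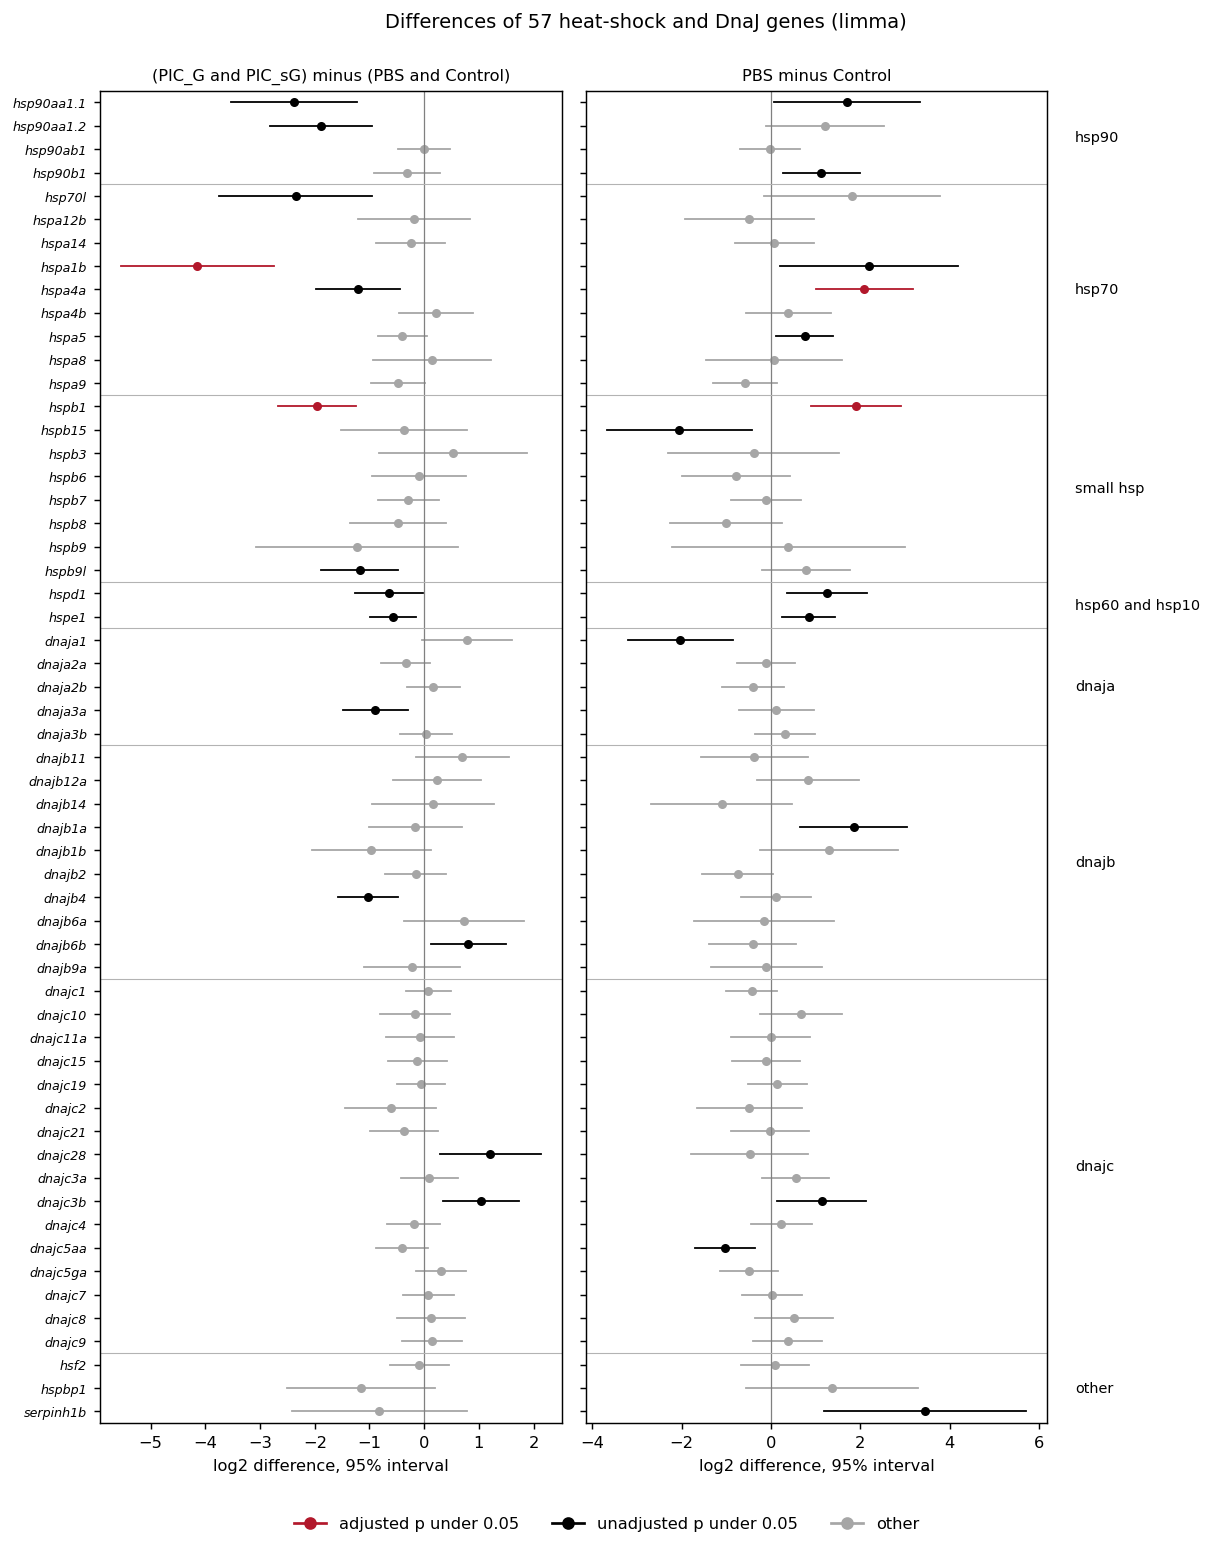
Log2 differences with 95% intervals of 57 genes by family, between the 6 dsRNA arrays and the 6 others (left) and between PBS and Control (right), in red where the adjusted p was under 0.05. The 2 genes called on the left, hspa1b and hspb1, were lower, and the 2 called on the right, hspa4a and hspb1, were higher.

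PBS against Control shows what saline injection, and the gradient where the methods place it, went with in the absence of dsRNA. Here 2 of the 57 chaperones were called, hspa4a and hspb1 (1.90 ± 0.46, adjusted p = 0.0464), both higher in PBS, where 3.7% of all transcripts were called. At an unadjusted p under 0.05, 11 chaperones were higher and 3 lower, 19.3% and 5.26% of them, against 12.9% and 8.92% of all transcripts. The 11 were hsp90aa1.1, hsp90b1, hspa1b, hspa4a, hspa5, hspb1, hspd1, hspe1, dnajb1a, dnajc3b and serpinh1b, and the 3 were hspb15, dnaja1 and dnajc5aa. The median difference over the chaperones was 0.10, close to the 0.07 over all transcripts. With the slide as a block 5 chaperones were called, hspa4a, hspb1, hspd1, hsp90b1 and dnajb1a, all higher, where 7.27% of all transcripts were. In that fit serpinh1b (adjusted p = 0.0506), dnajc3b (0.0522), dnaja1 (0.0531) and hspa1b (0.0675) did not pass. The split depended on scaling: scaled to the 50th percentile, which moved the median of all transcripts to -0.16, it was 4 higher and 3 lower, after quantile normalization 8 and 5, and with the series table's values 5 and 4. That of all transcripts went from 2074 higher and 1439 lower to 443 and 1134, 1318 and 1424, and 738 and 1883. Both calls were lost with the 50th percentile, quantile normalization, normexp, no filter on dim probes and the series table, with adjusted p up to 0.553 for hspb1 and 0.469 for hspa4a. With the 50th percentile, normexp and no filter, 0% of all transcripts were called in this comparison. The call of hspb1 held in 2 of 12 fits that left out 1 array, with an adjusted p up to 0.155 without PBS replicate 3.

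PIC_G against PIC_sG asks what the thermal gradient went with in dsRNA-injected fish. No chaperone was called by limma, where 0.0062% of all transcripts, 1 in number, were. At an unadjusted p under 0.05, 3 chaperones were higher in PIC_G, hspb1, hspa1b and hsp90aa1.1, and 1 was lower, dnajc15, against 3.86% higher and 2% lower among all transcripts. The hspb1 arrays did not overlap (difference 2.11 ± 0.46, adjusted p = 0.614), with 0.71, 2.39 and 3.23 within the slides. The hspa1b gene was at least 4.33-fold higher in PIC_G and hsp90aa1.1 at least 1.86-fold (adjusted p of the measured difference = 0.774 for both). For dnajc15 the joint difference was -0.92 ± 0.35 (adjusted p = 0.774), beyond the -0.89 and -0.42 of its 2 probes. The dimmer probe was left out on PIC_sG replicate 3, whose level rests on the other probe alone. The gene was well above background on 1 PIC_sG array. The median over chaperones was 0.24 and that over all transcripts 0.18. Scaled to the 50th percentile the median of all transcripts was 0.955, and 6 chaperones were higher and none lower, and with the series table's values none was higher and 4 were lower. Of all transcripts 1737 were higher and 102 lower with the 50th percentile, and 59 higher and 1130 lower with the series table. On the same arrays 6 of the 9 anti-viral genes were lower in PIC_G at an unadjusted p under 0.05, with a median of -1.64.

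The comparisons PBS against Control and PIC_G against PIC_sG share no array. Both differences were above 1 for 6 chaperones, hspa1b, hspb1, hsp90aa1.1, serpinh1b, dnajb1b and hsp70l. The share of all transcripts above 1 in both was not counted. Both were above 0 for 28 of the 57 chaperones and 5946 of the 16130 transcripts. No PIC_sG array was well above background for hspa1b and hsp90aa1.1, nor was PIC_sG replicate 3 for serpinh1b, dnajb1b and hsp70l. Over the 57 chaperones the differences had a Pearson correlation of 0.583, and over all 16130 transcripts one of 0.121. This is a description across genes, which are not independent, on arrays that share slides and probes, and its sign turns with the dsRNA groups exchanged.

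**Figure D4:**
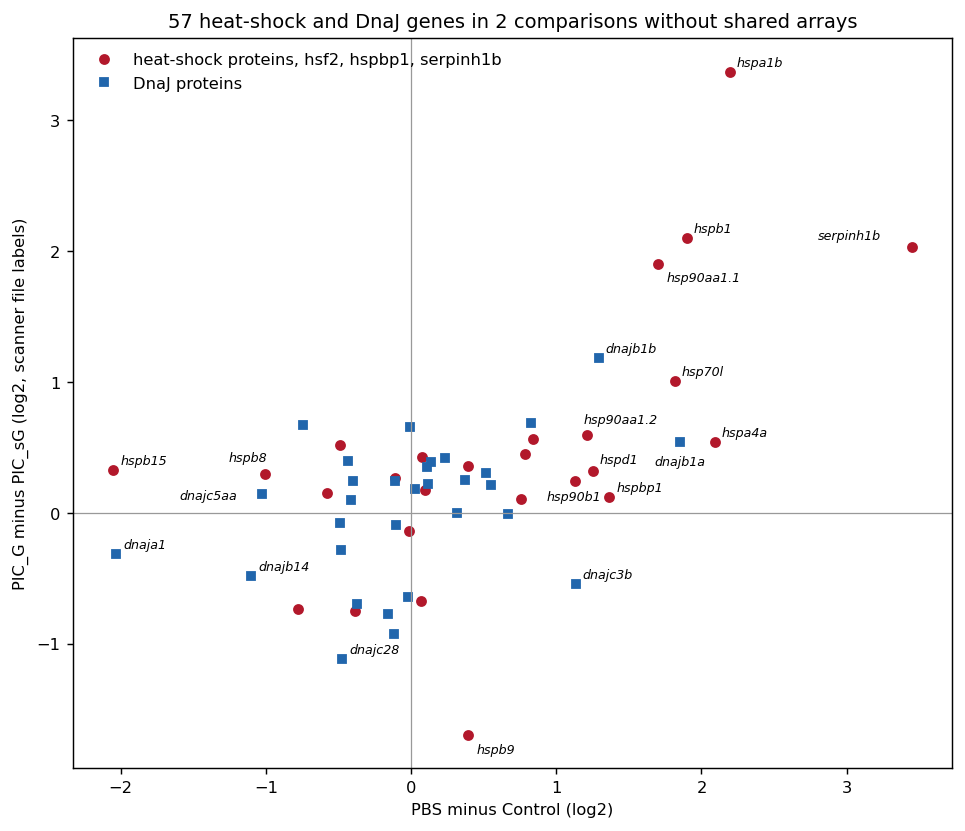
Log2 difference between PIC_G and PIC_sG (y axis, groups as in the scanner files) against that between PBS and Control (x axis) for the 57 chaperones. The genes hspa1b, hspb1, hsp90aa1.1 and serpinh1b lie far to the upper right, with both differences above 1. For all of these but hspb1 the differences include arrays that were not well above background.

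PIC_G against PBS, both in the gradient, gave no call among chaperones by limma, where 0.26% of all transcripts were called. At an unadjusted p under 0.05, 2 chaperones were higher and 11 lower in PIC_G, against 9.73% and 3.67% of all transcripts. The 8 with the smallest p were hspb1, hspa4a, hspa1b, hsp90aa1.2, dnaja1, hsp70l, hsp90aa1.1 and hspb9l, of which dnaja1 was higher and the others lower, with log2 differences between -1.35 for hspb9l and -3.56 for hspa1b. The split of 2 and 11 became 3 and 4 with the 50th percentile, 0 and 5 with normexp background correction and 6 and 10 with the series table. That of all transcripts went from 1569 higher and 592 lower to 1546 and 143, 726 and 498, and 1757 and 272.

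PIC_sG against Control called hspa1b alone, where 1.23% of all transcripts were called. At an unadjusted p under 0.05, 2 chaperones were higher and 10 lower in PIC_sG, against 9.94% and 5.99% of all transcripts, and 0 and 12 with the 50th percentile, 0 and 7 with normexp and 1 and 0 with the series table. Under these 3 settings all transcripts split into 289 higher and 1624 lower, 808 and 526, and 2224 and 120. Besides hspa1b the smallest p among the lower genes belonged to hspb1 (-2.06 ± 0.46, adjusted p = 0.0581) and to hsp90aa1.1, which was at least 2.77-fold lower (adjusted p of the measured difference = 0.140). The higher genes were dnajc3b and dnajc28.

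The comparisons of PIC_sG with PBS and of PIC_G with Control were added after the data were seen. Between PIC_sG and PBS, which differ in dsRNA and gradient at once, 4 chaperones were called, all lower in PIC_sG, where 0.98% of all transcripts were called. These were hspb1, hspa1b, hspa4a and hsp90aa1.1, the last at least 9-fold lower (adjusted p of the measured difference = 0.0293, and up to 0.095 without PBS replicate 3). Between PIC_G and Control no chaperone was called by limma, where 1.46% of all transcripts were, and 3 passed an unadjusted p under 0.05, dnajc3b (1.33 ± 0.45, adjusted p = 0.175), dnajc5aa and dnajb4, with dnajc3b higher and the other two lower, against 11.9% higher and 3.47% lower among all transcripts.

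By their group means 27 of 57 chaperones were lowest in PIC_sG, against 26.6% of all transcripts, and 24 were highest in PBS, against 28.9%. The commonest order, PBS over PIC_G over Control over PIC_sG, was that of 10 genes, among them hspb1, hspa4a, hspa5, hspd1, hspe1, dnajb1b and serpinh1b. The next, PBS over Control over PIC_G over PIC_sG, was that of 8 genes, among them hspa1b, hsp70l, hsp90aa1.1, hsp90aa1.2, dnajb4, dnaja3a and hspb9l. The share of all transcripts with either order was not counted, and both orders change with the dsRNA groups exchanged.

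Genes that work with the chaperones were counted from lists by role, at an unadjusted p under 0.05 unless called. At that level 5.19% of all transcripts were lower and 10.5% higher with dsRNA, and 12.9% were higher and 8.92% lower in PBS than in Control. Of 15 tested co-chaperones of Hsp90, 3 had an unadjusted p under 0.05 with dsRNA, all lower: ahsa1a, which drives Hsp90's ATP cycle (-2.02), unc45b, which folds myosin with Hsp90 (-1.94, adjusted p = 0.0446), and the immunophilin fkbp4 (-0.52). Between PBS and Control 5 of the 15 were higher and none lower at that level, with a median of 0.91. Of 8 co-chaperones of Hsp70, 2 were lower with dsRNA at that level, st13 (-0.69) and hikeshi (-0.73), which carries Hsp70 into the nucleus in heat shock. Of 11 genes of the cytosolic chaperonin and prefoldin, 3 were lower with dsRNA (tcp1, cct4 and cct8) and 4 were higher in PBS than in Control. Their summed signal, in multiples of the array's 75th percentile, was 180 to 199 in PIC_G, 176 to 208 in PIC_sG, 293 to 355 in PBS and 188 to 247 in Control, so that only the PBS arrays stood clear of the rest. Of 10 other stress-inducible genes 1 was called between PBS and Control, the haem oxygenase hmox1a (higher by 1.91 in PBS, adjusted p = 0.0323). None of 3 crystallins and none of 4 cold-inducible genes was called with dsRNA or between PBS and Control, where cryabb (1.197) and cirbpb (1.32) passed an unadjusted p under 0.05.

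Cell type markers moved with these groups as well. Of 12 tested skeletal muscle markers 10 were lower with dsRNA at an unadjusted p under 0.05, and tpma and mylz3 passed the adjusted threshold. Their summed signal was 725 to 827 in PIC_G, 727 to 806 in PIC_sG, 1125 to 2147 in PBS and 826 to 1480 in Control, and each of the 12 was well above background on 9 or more arrays. Between PIC_G and PIC_sG 2 of the 12 were higher in PIC_G at an unadjusted p under 0.05, acta1a (1.30) and mylpfb (1.27), as was the myosin chaperone unc45b (1.60), and between PBS and Control acta1a was called as higher in PBS (1.75, adjusted p = 0.0471). Of 5 tested microglia and leukocyte markers 3 were called as higher than in Control in PBS, 2 in PIC_G and 1 in PIC_sG. The sums were 152.6 to 232 in PIC_G, 142.2 to 207.9 in PIC_sG, 210.5 to 272.5 in PBS and 83.3 to 91.4 in Control. Every Control array was thus under all others, and csf1ra was well above background on 3 arrays only. Neuronal markers, of which 6 of 8 were tested, summed to 53.7 to 78.0 in PIC_G, 48.5 to 52.4 in PIC_sG, 48.9 to 59.0 in PBS and 52.6 to 80.6 in Control, and elavl3, well above background on 4 arrays, was called as lower in PBS than in Control (-1.75, adjusted p = 0.047). Oligodendrocyte markers summed to 23.6 to 29.1 in PIC_G, 9.97 to 21.1 in PIC_sG, 18.8 to 28.2 in PBS and 25.1 to 40.8 in Control. The sum was thus lower on every PIC_sG array than on every PIC_G array. It weighs plp1b most, the brightest gene of the list. Between PIC_G and PIC_sG olig2 alone passed an unadjusted p under 0.05 (1.205), no gene of the list was called, and mpz was slightly higher in PIC_sG (0.36 against 0.28). The sum of the 2 tested pituitary genes, gh1 and pomca, was also lower on every PIC_sG array than on every PIC_G array. It was 5.16 to 11.4 in PIC_G, 1.11 to 5.05 in PIC_sG, 1.74 to 6.77 in PBS and 0.733 to 1.75 in Control. Eye and lens markers summed to 65.0 to 95.8 in PIC_G, 53.2 to 98.5 in PIC_sG, 105 to 174 in PBS and 31.5 to 97.9 in Control, with every PBS array above all others. Radial glia markers summed to 72.2 to 85.4 in PIC_G, 50.4 to 75.5 in PIC_sG, 50.6 to 73.5 in PBS and 77.8 to 129 in Control, and erythrocyte sums overlapped among all groups. The part of these cell types in the chaperone differences was not tested. Fewer cells of a type in a pooled sample, whatever tissue they came from, and less RNA per cell cannot be told apart.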

How the data were processed

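All 12 single-colour Agilent arrays (Cy3) were scanned by the authors, and the deposited files hold spot intensity values from Feature Extraction 10.7.3.1, background-subtracted and detrended within each array. The deposited series table is, judged by its values, on a natural log scale (background-subtracted intensity, not scaled between arrays), and its 6 PIC_G and PIC_sG columns equal arrays of the other dsRNA group within 1e-08. It served as an alternative only.

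In R 4.3.3 the log2 of the processed signal was centred on each array's 75th percentile over probes that are not controls, after the percentile shift named in the methods. Outlier spots were left out, no spot was saturated, probes well above background on at least 3 arrays were kept, and the median was taken over probes of a transcript. Genes were named by matching accessions to the RefSeq gene table, since the scanner files carry no gene name column. One limma 3.58.1 model over the 4 groups gave each comparison, with Benjamini-Hochberg adjustment over 16130 transcripts. The model fit alone was tested on simulated levels, and the steps before it were not. Normexp, as an alternative, used the spot and background medians with an offset of 50, since the mean signal column was not used here.

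Genes were named where they were called, were among the 8 with the smallest p in a comparison, or were on a list by role. The genes and lists were chosen with earlier results of these data known. Arrays of the same slide deviated from their group means together between PBS and Control (correlations of 0.556, 0.256 and 0.286) but not on each slide between PIC_G and PIC_sG (0.129, 0.17 and -0.195), and the slide as a block is an alternative. Sequences were not analysed here.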

Additional observations from a re-analysis of the deposited data

Results flagged for a closer look

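In sets of 6 arrays, with and without dsRNA, 28 sets of levels were tested for a single array far from the others, which chance flags in about 1 of 20 sets. The hspa4a level of the dim PIC_sG replicate 3 was -1.295, where the nearest of the 6 dsRNA arrays had -0.233 and the farthest 0.237, a gap of 0.693 of the range. That array was not well above background for hspa4a. The dnajb6b level of PBS replicate 2 was -3.206, where the nearest of the 6 PBS and Control arrays had -2.428 and the farthest -2.042, a gap of 0.668 of the range, and none of these 6 arrays was well above background for that gene.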

How the results depend on the processing

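Of 1792 values of 80 results on named genes under 23 other settings, 1631 kept their direction and their side of the threshold, 72 lost it, 76 gained it and 13 changed sign. The causes were not tested. With the dsRNA groups exchanged, PIC_G against PIC_sG gave -3.37 for hspa1b, -2.105 for hspb1, -1.91 for hsp90aa1.1 and 0.92 for dnajc15, and PIC_sG against Control gave 0.049 for hspb1. The series table gave -2.58 for hspb1, -3.46 for hsp90aa1.1 and 1.21 for dnajc15 between PIC_G and PIC_sG, 0.13 for dnajb2 and 0.49 for hspb1 between PIC_sG and Control, and 0.059 for hspe1 between PIC_sG and PBS. For dnajb6b PIC_G against PBS gave -0.019 without the filter on dim probes, and PIC_sG against PBS gave -0.20 with normexp.

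With the replicate block (the slide) 5 chaperones were called with dsRNA (2.81% of all transcripts), 5 between PBS and Control (7.27%), 2 between PIC_sG and Control (1.87%), 6 between PIC_sG and PBS (1.64%) and 5 for any difference (4.38%), and between PIC_G and PIC_sG there were 0 (0%). With dsRNA, between PBS and Control and between PIC_sG and Control, the block kept the call of every chaperone called without it.

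Array weights called 8.23% of all transcripts with dsRNA, 17% between PBS and Control, 16.3% between PIC_G and PBS, 2.88% between PIC_sG and Control, 2.52% between PIC_sG and PBS, 14.3% between PIC_G and Control and 16.4% for any difference. Of the 2 calls with dsRNA, hspa1b alone was left with normexp (0.267% of all transcripts) and without the filter (0.158%), and array weights gave 9. Other settings gave 2 calls but not the same genes. These were hspa1b and hsp90aa1.1 with the 50th percentile (0.515% of all transcripts), hsp90aa1.1 and dnajc3b with the series table (1.31%), and hspb1 and hsp90aa1.2 with a filter on all arrays (1.87%). The 2 calls between PBS and Control became 0 with the 50th percentile, quantile normalization, normexp, no filter and the series table, and 13 with array weights. Of all transcripts, too, 0% were called there with the 50th percentile, normexp and no filter. It was 0.806% with quantile normalization and 0.431% with the series table. PIC_G against PBS, with 0, gave 16 with array weights, 4 with the groups exchanged (0.98% of all transcripts) and 2 with the series table (0.606%). PIC_sG against Control, with 1, gave 0 with normexp (0.242% of all transcripts), without the filter (0.121%), with the groups exchanged (1.46%) and with the series table (0.539%), and 2 with a filter on all arrays (1.85%) and with array weights. PIC_sG against PBS, with 4, gave 0 with normexp (0.031% of all transcripts), the exchange (0.26%) and the series table (4.84%), 2 without the filter (0.0483%) and with the filter on all arrays (1.25%), and 8 with array weights. PIC_G against Control, with 0, gave 5 with array weights and 1 with the exchange (1.23% of all transcripts). The 2 calls for any difference became 0 with normexp (0.105% of all transcripts) and without the filter (0.0697%), 14 with array weights and 1 with the series table (0.916%). The methods' one-way test called 2, hspb1 and hspe1, both at p under 0.001, where 289 of all transcripts were called, and after Benjamini-Hochberg adjustment, where 243 were. The chaperone median less that of all transcripts, -0.26 with dsRNA, was 0.10 without the filter. Between PIC_G and PIC_sG, at 0.06, it was -0.077 with quantile normalization, 1.07 without the filter and -0.063 with the exchange, and between PBS and Control, at 0.02, it was -0.17 without the filter.

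Leaving out 1 array at a time gave 2 to 5 calls with dsRNA, 0 to 3 between PBS and Control, 0 to 2 between PIC_sG and Control, 2 to 5 between PIC_sG and PBS and 2 to 4 for any difference, and 0 in the other comparisons. Of all transcripts these fits called, in that order, 0.683% to 1.99%, 0% to 7.32%, 0.497% to 1.68%, 0.273% to 0.937% and 0.521% to 4.15%. The other comparisons had 0% to 0.062% (PIC_G against PIC_sG), 0.00621% to 0.751% (PIC_G against PBS) and 0.186% to 3.25% (PIC_G against Control). PBS against Control gave 0 without Control replicates 1 or 3, PBS replicates 2 or 3, PIC_sG replicates 1 or 2 or PIC_G replicates 2 or 3, and PIC_sG against Control gave 0 without Control replicates 2 or 3, PIC_sG replicates 1 or 2 or PIC_G replicate 2. Of all transcripts 0% were called between PBS and Control without PBS replicate 2 and 0.0248% without Control replicate 3. The share was 0.621% to 2.9% in the remaining fits named for that comparison, and 0.497% to 0.93% in those named for PIC_sG against Control. The median between PIC_G and PIC_sG lay between 0.017 and 0.18. Genes near background, and all values of the dim PIC_sG replicate 3, are the least precise.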
